A study of Homo sapiens with 9 samples.

Results

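FAIRE peaks present in both lists labelled as stimulus withdrawal (SW) were compared, the SW DMSO list against the SW rottlerin list. A pair was made of a peak of each list on chromosomes 1 to 22, X and Y when they overlapped by at least 1 bp and each was the other's largest overlap. This gave 17139 pairs among the 40703 regions that all 4 peak lists of the series merge into, and they took in 85.1% of the 20132 peaks of the SW DMSO list and 56.4% of the 30409 peaks of the SW rottlerin list. The series profiled Jurkat clone E6-1, a human T cell leukaemia line, in a model of transcriptional memory, with 1 library for each of 8 combinations of cell state and pre-treatment and 1 library of total input DNA. Cells of both SW groups were activated for 4 h with phorbol 12-myristate 13-acetate (PMA), which activates protein kinase C (PKC), and a calcium ionophore, then washed and rested for 1 day without stimulus. They differed by label in pre-treatment, which was the vehicle DMSO in one and 15 µM rottlerin for 1 h, sold as a PKC inhibitor, in the other. Lists labelled non-stimulated (NS), with DMSO and with rottlerin, served as further readouts at the same loci. The remaining 5 samples were not analysed here. The rottlerin libraries were made to ask what PKC signals contribute to chromatin accessibility. Rottlerin is known to act on targets other than PKC, and a single leukaemia line stands in for T cells here.

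The labels of the SW rottlerin and NS rottlerin lists are in doubt. All peaks of the 4 lists, on all contigs, merged into 40731 regions, which is the total that the study's methods give for its DMSO samples alone, and those methods describe peak calling on DMSO samples only. The 40703 regions on chromosomes 1 to 22, X and Y also equal the number that the study kept after removing other contigs. Whether the list labelled SW rottlerin came from rottlerin-treated, withdrawn cells therefore cannot be told from the labels. The same holds for the list labelled NS rottlerin and rottlerin-treated, non-stimulated cells. The study's DMSO samples were non-stimulated, stimulated, withdrawn and re-stimulated cells. If the rottlerin-labelled lists came from its stimulated and re-stimulated DMSO cells, the shifts below would compare activation states and not pre-treatments. Which of these applies was not tested. The names of the 4 lists below mean the lists so labelled, and a likeness of the rottlerin-labelled lists cannot be read as one of pre-treatment. Each list comes from 1 library, so no difference has a replicate error and none was tested, and intervals are 95% Wilson intervals that cover counting error only. Read depth is unknown from a peak list. Of 9 T cell genes checked as markers (*CD3D*, *CD3E*, *CD3G*, *CD247*, *LCK*, *TRAT1*, *CD28*, *ZAP70*, *TAL1*), 7 had a peak within 1 kb of the transcription start site (TSS) in the SW DMSO list and 8 in the SW rottlerin list. B cell markers had such a peak at 0 and 1 of 6 genes, myeloid markers at 0 and 1 of 6, NK markers at 1 and 1 of 4 and erythroid markers at 0 and 0 of 4.

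FAIRE recovers DNA that is depleted of nucleosomes, which marks promoters and enhancers. In T cells, calcium signals bring NFAT factors into the nucleus while PKC signals activate AP-1 and NF-κB, and these factors meet at enhancers already held open by lineage factors such as RUNX, GATA, ETS and E proteins. E proteins and some zinc-finger repressors bind the E-box CACCTG.

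Sequences of 10 loci are given here because they carry the letters by which the extremes of the comparison differed. They are the reference sequence of GRCh37, plus strand, in the central 300 bp of the overlap. Capitals mark matches on either strand to AP-1 (TGAGTCA), NFAT (TGGAAA), the GATA factors (with either AGATAA or the variant TGATAA), the RUNX factors (with either TGTGGTT or the variant TGCGGTT) and the E-box CACCTG. The loci were chosen after their values were seen, outside exons. The first 5 ranked higher in the SW rottlerin list. The *TENT5C* and *PEAK1* introns held 3 and 1 NFAT matches, the *CD44* and *IL2* upstream regions combined NFAT, GATA and RUNX, and the *FASLG* promoter held NFAT and GATA.
*TENT5C* intron, chr1:118155647-118155946: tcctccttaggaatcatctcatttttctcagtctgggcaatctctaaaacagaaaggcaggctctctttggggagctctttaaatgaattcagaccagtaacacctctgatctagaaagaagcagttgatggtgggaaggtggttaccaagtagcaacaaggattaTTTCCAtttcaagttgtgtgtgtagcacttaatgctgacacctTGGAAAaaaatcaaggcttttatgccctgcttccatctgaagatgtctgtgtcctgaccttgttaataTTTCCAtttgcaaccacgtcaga
*PEAK1* intron, chr15:77480195-77480494: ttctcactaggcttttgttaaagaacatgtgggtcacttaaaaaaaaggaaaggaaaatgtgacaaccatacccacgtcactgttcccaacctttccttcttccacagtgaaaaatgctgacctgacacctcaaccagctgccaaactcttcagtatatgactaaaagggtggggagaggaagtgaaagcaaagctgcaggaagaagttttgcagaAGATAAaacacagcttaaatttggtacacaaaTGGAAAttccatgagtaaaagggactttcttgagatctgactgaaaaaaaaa
*CD44* upstream, chr11:35143875-35144174: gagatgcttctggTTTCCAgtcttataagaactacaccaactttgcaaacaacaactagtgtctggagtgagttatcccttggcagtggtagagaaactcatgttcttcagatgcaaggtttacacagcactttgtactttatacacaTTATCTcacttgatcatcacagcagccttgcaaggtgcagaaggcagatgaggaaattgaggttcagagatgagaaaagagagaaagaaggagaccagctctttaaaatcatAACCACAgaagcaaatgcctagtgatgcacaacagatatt
*IL2* upstream, chr4:123424388-123424687: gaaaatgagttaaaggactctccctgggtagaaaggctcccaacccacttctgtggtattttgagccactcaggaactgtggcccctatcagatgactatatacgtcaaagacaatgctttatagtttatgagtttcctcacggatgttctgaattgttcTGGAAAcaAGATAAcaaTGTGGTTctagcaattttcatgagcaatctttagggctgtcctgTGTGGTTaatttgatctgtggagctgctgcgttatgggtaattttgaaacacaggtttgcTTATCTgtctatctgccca
*FASLG* promoter, chr1:172627941-172628240: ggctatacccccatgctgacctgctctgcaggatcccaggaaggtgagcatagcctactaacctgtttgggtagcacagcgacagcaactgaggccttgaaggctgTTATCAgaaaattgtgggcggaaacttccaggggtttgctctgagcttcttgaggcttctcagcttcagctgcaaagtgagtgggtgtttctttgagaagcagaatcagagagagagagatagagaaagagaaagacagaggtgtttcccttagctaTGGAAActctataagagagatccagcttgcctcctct

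The other 5 loci ranked lower in the SW rottlerin list. The *CDIN1* intron held 2 RUNX matches and 1 GATA match, and the *HROB* upstream region held AP-1. The region 31.2 kb before *FASLG* held AP-1, CACCTG and GATA, the *CD69* region CACCTG and RUNX, and the *THEMIS* intron CACCTG and NFAT. Letters more frequent in the upper tail thus also occurred at 3 of these 5 loci.
*CDIN1* intron, chr15:36883198-36883497: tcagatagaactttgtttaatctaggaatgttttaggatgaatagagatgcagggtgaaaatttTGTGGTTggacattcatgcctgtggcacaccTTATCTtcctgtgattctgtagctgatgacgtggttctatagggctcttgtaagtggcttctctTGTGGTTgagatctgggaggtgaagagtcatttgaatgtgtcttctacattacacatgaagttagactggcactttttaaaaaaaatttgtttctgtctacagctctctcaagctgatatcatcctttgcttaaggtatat
*HROB* upstream, chr17:42215543-42215842: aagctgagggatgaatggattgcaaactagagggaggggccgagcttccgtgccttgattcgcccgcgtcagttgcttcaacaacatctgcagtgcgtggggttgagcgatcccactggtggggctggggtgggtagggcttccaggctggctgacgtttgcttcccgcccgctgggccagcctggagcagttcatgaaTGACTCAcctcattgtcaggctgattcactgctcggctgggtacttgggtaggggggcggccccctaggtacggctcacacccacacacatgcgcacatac
*FASLG* distal, chr1:172596925-172597224: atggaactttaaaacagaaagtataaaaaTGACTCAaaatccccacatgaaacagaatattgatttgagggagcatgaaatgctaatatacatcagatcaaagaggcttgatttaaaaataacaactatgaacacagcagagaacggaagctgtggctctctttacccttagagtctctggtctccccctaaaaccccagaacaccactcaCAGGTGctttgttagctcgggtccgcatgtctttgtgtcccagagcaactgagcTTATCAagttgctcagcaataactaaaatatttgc
*CD69* region, chr12:9894399-9894698: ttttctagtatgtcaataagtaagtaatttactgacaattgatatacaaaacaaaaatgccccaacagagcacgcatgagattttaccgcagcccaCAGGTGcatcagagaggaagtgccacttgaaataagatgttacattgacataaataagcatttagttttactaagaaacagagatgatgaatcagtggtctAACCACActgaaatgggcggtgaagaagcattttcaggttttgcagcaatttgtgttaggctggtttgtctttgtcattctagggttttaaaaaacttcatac
*THEMIS* intron, chr6:128201771-128202070: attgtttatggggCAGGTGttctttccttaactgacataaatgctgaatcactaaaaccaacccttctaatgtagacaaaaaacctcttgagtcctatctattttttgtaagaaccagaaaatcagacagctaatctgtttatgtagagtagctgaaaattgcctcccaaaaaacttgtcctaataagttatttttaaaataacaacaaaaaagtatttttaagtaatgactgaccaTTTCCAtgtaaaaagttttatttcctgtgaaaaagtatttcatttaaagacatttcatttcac

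The value compared was the fold enrichment of each peak over total input, as MACS2 averaged it over a broad peak. It was turned into a percentile rank within the peak's own list, so that 0 is the lowest and 100 the highest peak, and the rank shift is the rank in the SW rottlerin list minus that in the SW DMSO list, in percentile points. Across the 17139 pairs the ranks had a Spearman correlation of 0.707, given as a description over loci that share an input library. The median fold enrichment was 4.14 in the SW DMSO list and 4.52 in the SW rottlerin list, and 69.3% of pairs had the higher value in the latter. Median ranks were 54.6 and 66.5. The median shift was 6.02 points with quartiles of −3.68 and 21.4, and it came to −0.32 when ranks were taken among paired peaks alone. Peaks of the SW rottlerin list were also wider, in 70.2% of pairs, with a median of 329 bp against 278 bp.

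A pair was called higher or lower in the SW rottlerin list when its shift lay at least 20 points above or below the median shift. Of all pairs, 3356 (19.6%) were called higher and 2054 (12.0%) lower. These shares are the background for the counts below, except where another setting is named. With the lists trimmed to equal length by the MACS2 score the excess turned round, to 2249 called higher (15.5%) and 2475 lower (17.1%) of 14489 pairs, which is the background for counts given with the lists trimmed. With ranks among paired peaks alone, 15.8% were called higher and 15.6% lower. The 5 pairs that ranked highest in both lists lay at the promoters of *CKS2* (a cyclin-dependent kinase subunit), *MARK2* (a microtubule-affinity kinase), *GNAI2* (an inhibitory G protein subunit), *TCTN3* (a tectonic protein of cilia) and *PNP* (purine nucleoside phosphorylase). All 5 lay within 0.26 kb of a TSS. The *CKS2* peak had a fold enrichment of 11.7 in the SW DMSO list and 11.9 in the SW rottlerin list, and the *PNP* peak had 9.34 and 11.0. Ranks were less alike away from promoters, with a Spearman correlation of 0.603 over the 10177 pairs more than 1 kb from a coding TSS against 0.834 over the 6962 nearer ones. Of the distant pairs, 22.6% were called higher and 15.4% lower, compared with 15.2% and 7.04% of the promoter-proximal pairs.

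**Figure D1:**
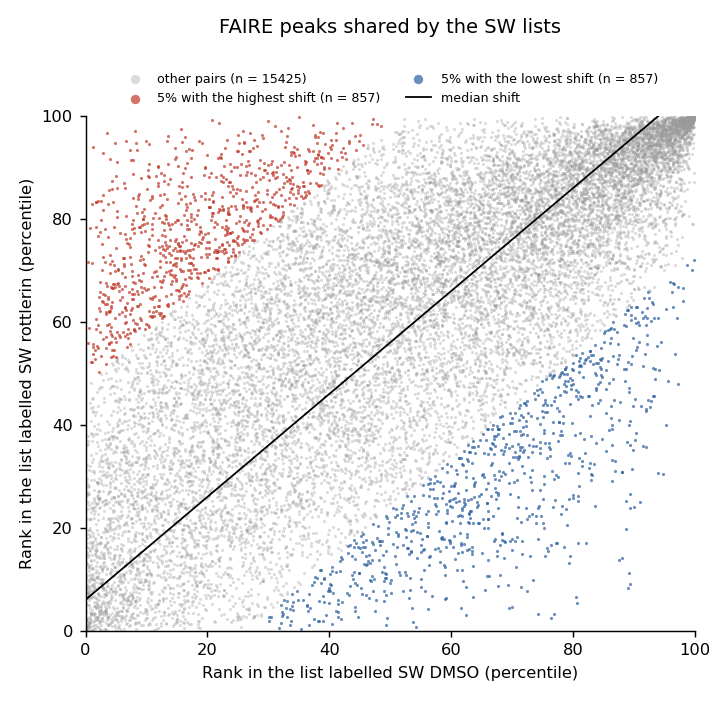
Rank of each of the 17139 pairs in the SW DMSO list (x axis, percentile) and the SW rottlerin list (y axis, percentile), with the 857 pairs of highest and the 857 of lowest shift coloured and the median shift of 6.02 points as a line. Pairs crowd into the upper right corner, where the strongest peaks of both lists meet, and spread widely at middle ranks.

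The 12 pairs with the highest shifts (85.0 to 93.3 points) were weak peaks of the SW DMSO list, with fold enrichments of 2.69 to 3.11, and strong peaks of the SW rottlerin list, with 5.91 to 6.91. The next pair, in *GOLIM4*, had a shift of 84.3. None of the 12 lay within 1 kb of a coding TSS, 10 lay in introns and 9 lay more than 10 kb from a coding TSS. With TSSs of any transcript counted, the *SLC12A8* locus lay 103 bp and the *GPC5* locus 841 bp downstream of a TSS of the same gene. Because they were chosen by this shift, these folds describe the choice, and what follows about the NS lists and the sequence was not used in it.

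The highest shift was in an intron of *RGS6*, a regulator of G protein signalling (chr14:73041401-73041638, 34.8 kb from the nearest coding TSS), where the fold enrichment was 2.86 in the SW DMSO list and 6.84 in the SW rottlerin list. A further intronic locus of *RGS6*, at chr14:73057330-73057507, was also among the 12, with 2.93 and 5.91. Both held NFAT matches, and neither had a peak in the NS DMSO list. At *PEAK1*, which encodes a pseudokinase of the cytoskeleton, the intronic peak had 2.69 and 6.29 and no peak in either NS list. The intron of *TENT5C*, which encodes a non-canonical poly(A) polymerase, had 2.82 and 6.14, and 3.21 in the NS rottlerin list. At *CD226*, an activating receptor of T and NK cells, the peak 18.9 kb upstream had 3.05 in the SW DMSO list, 6.91 in the SW rottlerin list, 3.58 in the NS DMSO list and 6.89 in the NS rottlerin list. The DMSO-labelled lists were thus both low at *CD226* and the rottlerin-labelled lists both high.

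The other 7 loci lay in or near *AMPH* (amphiphysin, of endocytosis), *SLC12A8* (a solute carrier, the single exonic locus among them), *SPAG17* (a protein of the ciliary axoneme), *ALDH1A2* (retinoic acid synthesis, though the nearest TSS of any kind there is that of the lipase gene *LIPC*), *PEX5L*, *CASS4* (an adaptor protein) and *GPC5* (a glypican). *AMPH* had 2.93 in the SW DMSO list, 6.41 in the SW rottlerin list and 5.23 in the NS rottlerin list. *GPC5*, whose nearest coding TSS is 327 kb away, had 3.06, 6.197 and 6.01 in the same order and 4.18 in the NS DMSO list. In all, 3 of the 12 loci had an NS DMSO peak and 10 had an NS rottlerin peak. All 12 were wider in the SW rottlerin list, NFAT letters were found at 9 of them, GATA letters at 6 and AP-1 letters at 1, the *PEX5L* intron.

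The 12 pairs with the lowest shifts (−80.8 to −66.3 points) had fold enrichments of 4.72 to 5.56 in the SW DMSO list and 2.79 to 3.35 in the SW rottlerin list. The next pair, nearest to *LNPK*, had a shift of −66.0. With the lists trimmed to equal length, 0 of these 12 loci had a pair, against 12 of the 12 highest. Of these 12, 1 lay within 1 kb of a coding TSS, at *TAGLN2*, 7 lay in introns and 6 lay more than 10 kb away. With TSSs of any transcript counted, the locus nearest to *KLHDC4* lay 205 bp upstream of a TSS of another gene.

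The lowest shift was 41.9 kb upstream of *MBL2*, which encodes mannose-binding lectin (chr10:54574346-54574570), with a fold enrichment of 5.55 in the SW DMSO list, 3.04 in the SW rottlerin list and 4.37 in the NS DMSO list. The *CFAP61* intron (chr20:20171121-20171344), in a gene of the cilium, had 5.56 and 3.07 and no NS peak. At *CDIN1*, mutated in a congenital anaemia, the intron had 5.56 in the SW DMSO list, 3.13 in the SW rottlerin list, 5.25 in the NS DMSO list and 4.06 in the NS rottlerin list. The *TRANK1* intron had 4.99, 2.94, 5.36 and 4.62 in that order of lists. At both loci the SW rottlerin list was the lowest of the 4.

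Upstream of *HROB*, a factor of homologous recombination, the peak had 5.46 and 3.20 and lay over the AP-1 letters shown above, with no NS peak. Upstream of *SSTR3*, a somatostatin receptor, it had 5.41 and 3.20, with 5.74 in the NS DMSO list. At the TSS of *TAGLN2*, an actin-binding transgelin, it had 4.93 and 3.18, with 3.02 in the NS rottlerin list. The remaining 5 loci lay nearest to *UBE2E2* (a ubiquitin-conjugating enzyme), *CTNNAL1* (a catenin relative), *KLHDC4*, *USP6NL* (a GTPase-activating protein) and *RBBP8* (DNA end resection). NS DMSO and NS rottlerin peaks were each present at 5 of the 12 loci. AP-1 letters were found at 4 of them, RUNX letters at 3, NFAT letters at 2 and GATA letters at 2, and 6 were wider in the SW rottlerin list.

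**Figure D2:**
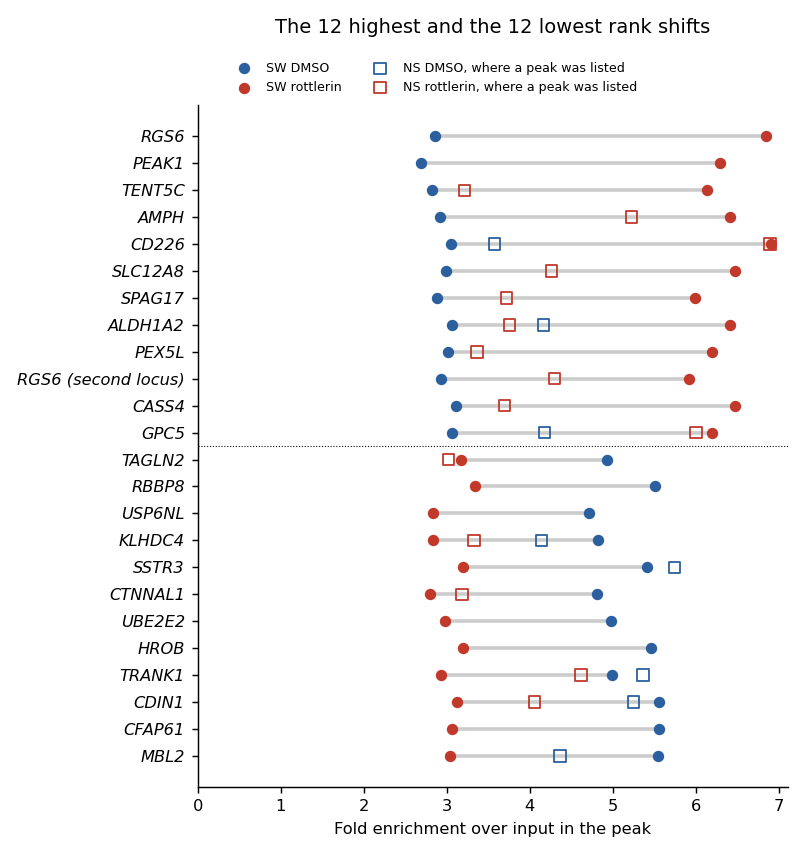
Fold enrichment over total input (x axis) at the 12 loci with the highest and the 12 with the lowest rank shift, each named by its nearest coding TSS, in the SW lists (filled circles) and, where a peak was present, the NS lists (open squares). The loci above the dotted line had 2.69 to 3.11 in the SW DMSO list and 5.91 to 6.91 in the SW rottlerin list, and those below had 4.72 to 5.56 and 2.79 to 3.35.

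To see what the extremes shared beyond the values that chose them, the 5% of pairs with the highest shift (upper tail) and the 5% with the lowest (lower tail) were compared with all pairs. Each tail held 857 pairs. The upper tail began at a shift of 48.07, with 48.06 just outside it, and the lower tail ended at −26.48, with −26.46 just outside. Both tails were distal. Of the upper tail, 19.3% (16.8–22.03) lay within 1 kb of a coding TSS, against 16.0% (13.7–18.6) of the lower tail and 40.6% (39.9–41.4) of all pairs. Introns and intergenic sequence held 74.3%, 76.1% and 58.9%. The median distance to a coding TSS was 17.4 kb and 17.9 kb in the tails against 5.04 kb. CpG-island-like sequence (GC over 50% and an observed to expected CpG ratio over 0.6) was found at 18.0%, 11.8% and 37.8%, and the median GC content was 46%, 46% and 52%. The tails' difference from each other in promoter share turned direction, to 16.7% above against 32.0% below, when the lists were trimmed to equal length by the MACS2 score, and so did that in CpG-island-like share, at 16.2% and 25.8%.

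**Figure D3:**
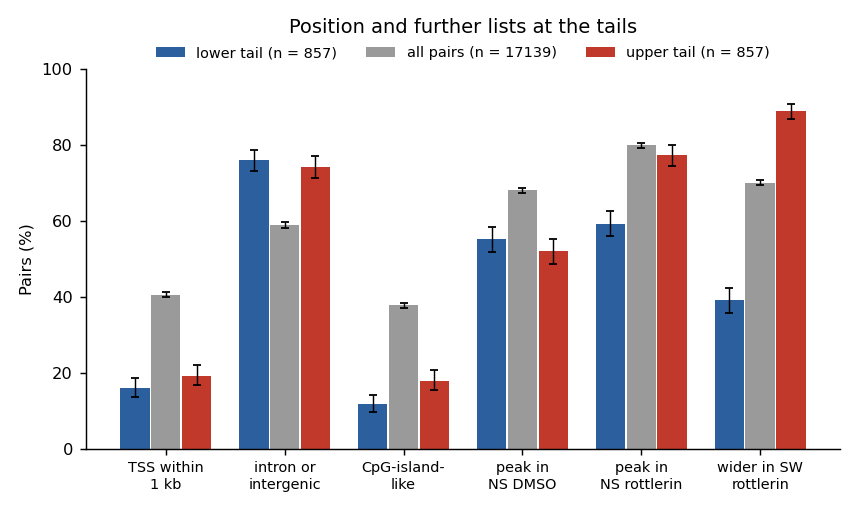
Share of pairs (y axis, percent, with 95% Wilson intervals) in the lower tail, all pairs and the upper tail that lay within 1 kb of a coding TSS, lay in an intron or intergenic sequence, were CpG-island-like, had a peak in each NS list, or were wider in the SW rottlerin list. Both tails lay far from promoters, and they parted in the NS rottlerin peaks (77.4% and 59.3%) and in width (89.0% and 39.1%).

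NFAT and GATA letters were more frequent in the upper tail, and AP-1 and CACCTG letters in the lower. NFAT letters occurred in 38.6% (35.4–41.9) of the upper tail, 24.3% (21.5–27.3) of the lower tail and 25.0% of all pairs. GATA letters occurred in 44.1% (40.8–47.5), 25.4% (22.6–28.5) and 23.7%. Both together were found in 18.0%, 5.601% and 7.62%. AP-1 letters occurred in 16.1% (13.8–18.7) of the upper tail, 28.9% (26.001–32.1) of the lower tail and 16.3% of all pairs, so the upper tail was at the level of all pairs and the lower tail above it. The E-box CACCTG occurred in 14.0% (11.8–16.5), 31.0% (28.03–34.2) and 19.8%.

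Other letters parted the tails less. RUNX letters were found in 24.0% and 29.1% of the tails against 20.7% of all pairs. Among distal pairs they were found in 27.2%, 31.3% and 29.6%, and at a GC content of 40 to 50% in 27.2%, 32.1% and 31.6%, so the upper tail then lay below all pairs. ETS letters (CGGAAGT or AGGAAGT) were found in 23.1%, 18.4% and 21.8%. NF-κB letters (GGANTTTCC) were rare, at 2.92%, 1.63% and 1.68%, and TCF/LEF letters (ATCAAAG) were found in 8.63%, 5.72% and 5.62%. The E-box CAGCTG was found in 14.5%, 20.3% and 17.2%. CTCF letters (AGNNGGCGC or AGNNGGCAG) were found in 13.9%, 15.5% and 18.6%, and those of NF-Y, a promoter factor (CCAATCA or CCAATGA), in 6.07%, 7.001% and 10.9%. In 10 equal groups of pairs ordered by shift, NFAT letters went from 23.05% in the lowest group to 34.5% in the highest, and GATA letters from 25.4% through 17.04% in the fourth to 36.9%. AP-1 letters were most frequent in the lowest group, at 26.6%, and lay between 13.1% and 18.7% in the others. The E-box CACCTG went from 26.6% in the lowest group to 15.7% in the highest.

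**Figure D4:**
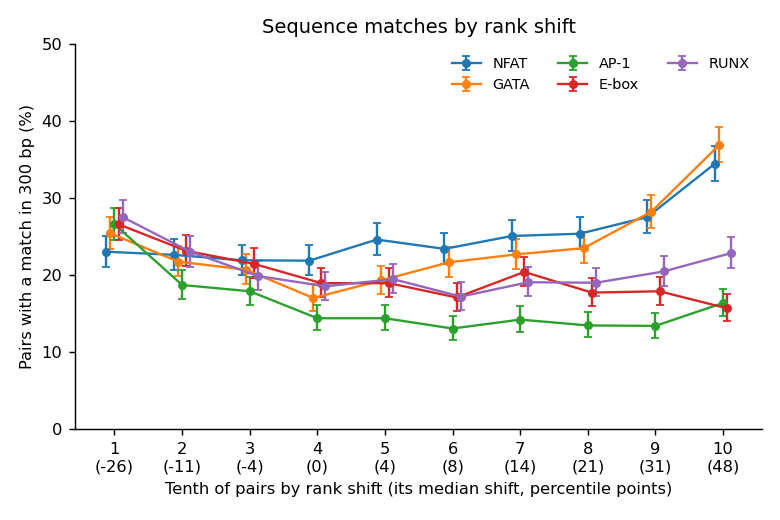
Share of pairs with a match in the central 300 bp (y axis, percent, with 95% Wilson intervals) in 10 equal groups of pairs ordered by rank shift (x axis, median shift of each group in parentheses), for 5 sets of letters, where E-box stands for CACCTG. NFAT and GATA were most frequent in the highest group (34.5% and 36.9%), AP-1 and the E-box CACCTG in the lowest (26.6% each).

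GC content and distance from promoters moved with these shares, and their part in the result was not tested. Among pairs with a GC content of 40 to 50% (389, 414 and 5576 pairs), NFAT letters were found in 45.2% of the upper tail, 26.3% of the lower tail and 33.8% of all pairs, GATA letters in 53.2%, 29.0% and 37.3%, AP-1 letters in 18.3%, 32.9% and 25.0%, and the E-box CACCTG in 12.6%, 28.02% and 20.2%. There the upper tail lay below all pairs in AP-1 letters and the lower tail below all pairs in NFAT and GATA letters. Among pairs more than 1 kb from a coding TSS, AP-1 letters were found in 18.9% of the upper tail, 31.8% of the lower tail and 24.6% of all such pairs. Width also moved with the tails, since 89.0% of the upper tail, 39.1% of the lower tail and 70.2% of all pairs were wider in the SW rottlerin list. In the 13135 pairs whose widths differed by at most 1.5 times, NFAT letters were found in 30.7% of the upper tail and 24.8% of the lower tail, and GATA letters in 33.5% and 26.03%, so both gaps were smaller, while AP-1 letters (15.4% and 29.98%) and the E-box CACCTG (16.6% and 31.2%) kept theirs. The part of width in the result was not tested further.

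The same relation can be read from the sequence, although these combinations were picked because they parted the tails, so the values restate the shares above and add no support. The 1159 distal pairs with both NFAT and GATA letters had a median shift of 13.2 points, with 32.3% called higher and 8.97% lower. The 560 distal pairs with both the E-box CACCTG and AP-1 letters had a median shift of −1.44, with 13.0% called higher and 24.6% lower. All distal pairs had a median of 6.44, with 22.6% and 15.4%.

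The NS lists, which the pairing did not use, were then read at the same loci. An NS DMSO peak was present at 52.0% (48.7–55.4) of the upper tail, 55.2% (51.8–58.5) of the lower tail and 68.1% of all pairs. An NS rottlerin peak was present at 77.4% (74.4–80.0), 59.3% (56.0–62.5) and 79.9%. The upper tail had a peak in the NS rottlerin list and none in the NS DMSO list at 28.5%, against 17.6% of the lower tail, and the reverse at 3.15% against 13.5%. With the lists trimmed to equal length by the MACS2 score, the NS rottlerin share was 78.7% in the upper and 78.04% in the lower tail, and the NS DMSO share was 53.3% and 68.9%.

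At the pairs with a peak in all 4 lists, the NS lists leaned the same way as the SW lists of the same pre-treatment label, which is in doubt for both rottlerin-labelled lists. In the 419 such pairs of the upper tail, the median rank was 39.3 in the NS DMSO list and 65.8 in the NS rottlerin list, beside the 16.99 and 78.8 of the SW lists by which they were chosen. The NS rottlerin rank was the higher at 74.5% of them. In the 357 such pairs of the lower tail the median ranks were 58.7 and 52.3, and the NS rottlerin rank was the higher at 42.9%, compared with 57.8% over all 10812 such pairs. Over those 10812, the Spearman correlation was 0.753 between the SW lists, 0.747 between the rottlerin-labelled lists, 0.691 between the DMSO-labelled lists and 0.681 between the NS lists. The SW lists were thus about as alike as the NS and SW lists labelled rottlerin.

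Genes of T cell activation were followed through lists of names, a pair belonging to a gene when that gene's coding TSS was the nearest and within 50 kb. The 12 lists other than the ribosomal one held 462 pairs, of which 123 (26.6%) were called higher and 45 (9.74%) lower, against 19.6% and 12.0% of all pairs. With ranks among paired peaks alone these came to 19.5% and 13.2%, against 15.8% and 15.6% of all pairs. With the lists trimmed to equal length they were 19.4% and 16.3%, against 15.5% and 17.1%. Among pairs with both ranks above the median they were 9.30% and 6.395%, against 8.41% and 5.39% of all such pairs. Of the 13926 pairs within 50 kb of any coding TSS, 18.5% were called higher and 11.3% lower. The order of the lists is shown in the plot of calls by gene list.

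Cytokines, chemokines and death ligands had the largest share called higher of the 13 lists, 16 of 37 pairs (43.2%), with 2 lower, and a median shift of 16.8. It was 12 of 30 pairs with the lists trimmed to equal length, and 3 of 14 among pairs with both ranks above the median. The pair 46.7 kb upstream of *IL2*, the T cell growth factor (chr4:123424449-123424626), had a fold enrichment of 4.16 in the SW DMSO list and 8.24 in the SW rottlerin list. *FASLG*, the ligand of the death receptor Fas, had 11 pairs within 50 kb, 4 called higher and 1 lower. Its promoter (chr1:172627983-172628198) had 3.75 and 6.19, the pair 19.9 kb upstream had 3.92 and 5.89, and the distal pair 31.2 kb upstream went the other way with 4.27 and 3.48. Higher and lower sites thus lay within 50 kb of the same gene.

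Upstream of *LTA*, lymphotoxin alpha (chr6:31536288-31536694), the fold enrichment was 4.08 and 6.45. Beyond *CSF2*, the growth factor GM-CSF, the pair 37.4 kb from its TSS had 3.51 and 5.44. The largest shift of the list was in the 3′UTR of *TNFSF14* (LIGHT), with 3.20 and 5.10. The pair 15.7 kb upstream of *TNFSF8*, the CD30 ligand, had 4.35 and 6.50. Near *IFNG*, interferon gamma, 1 pair was called higher (3.21 and 4.83, 30.2 kb upstream) and 1 lower (4.79 and 3.70, 39.9 kb downstream). Of the 37 pairs of this list, 3 lay within 1 kb of a coding TSS, and the *FASLG* promoter was the called one among them.

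Surface receptors of T cells had 19 of 59 pairs called higher (32.2%) and 6 lower (10.2%), and 3 and 3 of 21 among pairs with both ranks above the median. The largest shift was upstream of *CD44*, the hyaluronan receptor and marker of antigen-experienced T cells (chr11:35143942-35144107), with 3.03 in the SW DMSO list and 5.97 in the SW rottlerin list. A pair in *SLAMF1* (chr1:160611298-160611654), a receptor of the SLAM family, had 4.08 and 8.23. *PDCD1*, the inhibitory receptor PD-1, had 3.22 and 5.62 at 1.12 kb upstream and 3.55 and 5.57 at 8.54 kb downstream of its TSS. *TNFRSF9*, the costimulatory receptor 4-1BB, had 3.77 and 6.08 in its 3′UTR, and *IL4R*, a subunit of the IL-4 receptor, had 2.95 and 4.53.

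The furthest pair below the median in this list was 18.9 kb downstream of the TSS of *CD69*, an early activation marker (chr12:9894420-9894678), where the fold enrichment was 7.87 in the SW DMSO list and 4.65 in the SW rottlerin list. It fell in rank from 99.6 to 70.1. In *IL2RA*, the high-affinity IL-2 receptor chain, an intronic pair had 3.77 and 3.14. *CTLA4*, *CXCR4* and *ICOS* each had called pairs in both directions. At *ICOS*, a costimulatory receptor, the promoter had 5.45 and 4.49 and the pair 2.48 kb upstream had 4.19 and 5.34.

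**Figure D5:**
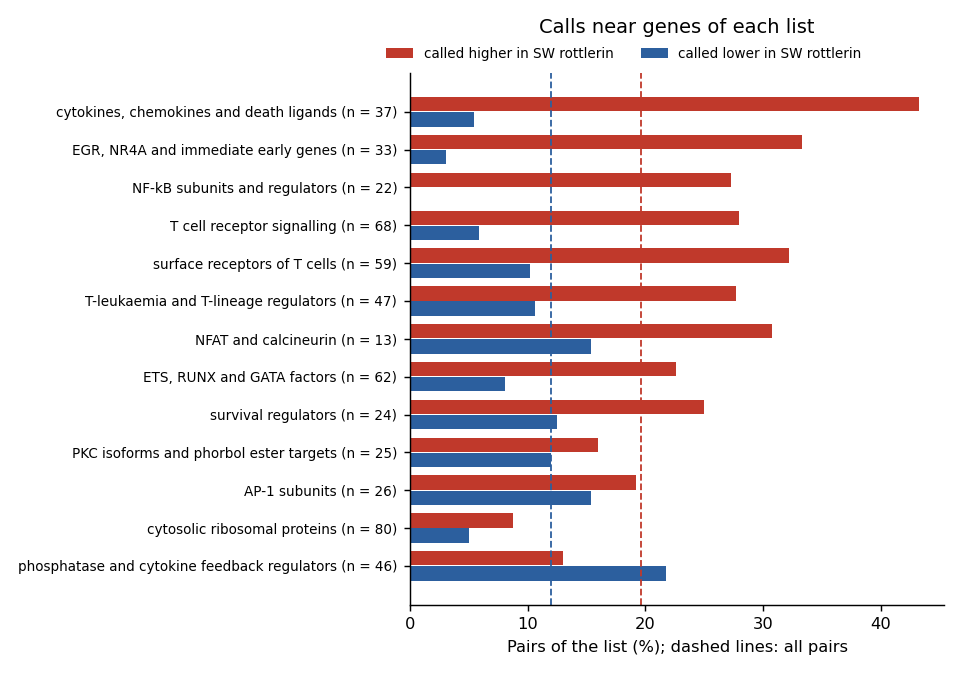
Share of pairs (x axis, percent) called higher and lower in the SW rottlerin list for each of 13 gene lists, with the number of pairs in parentheses and the shares of all pairs (19.6% and 12.0%) as dashed lines. Cytokines, chemokines and death ligands stand at 43.2% and 5.41%, and the feedback regulators at the bottom at 13.0% and 21.7%.

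T cell receptor signalling genes had 19 of 68 pairs called higher (27.9%) and 4 lower (5.88%), and 17 and 8 of 61 with the lists trimmed. Among pairs with both ranks above the median, 0 of 29 were called higher and 1 lower, against 8.41% and 5.39% of all such pairs. An intronic pair of *CD3E*, a chain of the receptor complex, had 3.08 and 4.96, and pairs of *PLCG1*, the phospholipase that feeds both calcium and PKC signals, had 3.20 and 4.93 and 3.28 and 4.37. *MALT1* and *BCL10*, which act between PKC and NF-κB, had 3 pairs called higher between them, such as 3.20 and 4.76 upstream of *MALT1*. *THEMIS*, a regulator of receptor signalling in thymocytes, was divided. Its promoter had 3.54 and 4.52 and a pair 4.26 kb upstream had 2.84 and 4.42, while pairs in its introns had 4.55 and 3.06 and 4.01 and 3.02. The phosphatase gene *PTPRC* (CD45) was divided as well, with 3.49 and 4.51 at 1 intronic pair and 3.94 and 3.17 at another.

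EGR, NR4A and other immediate early genes, the first to be transcribed after stimulation, had 11 of 33 pairs called higher (33.3%) and 1 lower, although the share was 16.7% with the lists trimmed to equal length, against 15.5% of all pairs, and 18.2% with ranks among pairs, against 15.8%. Among the 14 pairs of this list with both ranks above the median, 0 were called higher and 0 lower, against 8.41% and 5.39% of all such pairs. The *MYC* promoter had 3.59 and 5.402, and *NR4A2* and *NR4A3*, which encode orphan nuclear receptors, had 3.14 and 4.34 and 3.59 and 4.78. The pair called lower was in *NR4A1*, with 4.05 and 3.33. NF-κB subunits and regulators had 6 of 22 pairs called higher and 0 lower, and 5 and 3 of 18 with the lists trimmed. Among their 8 pairs with both ranks above the median, 3 were called higher and 0 lower. The pair in *NFKBID*, an atypical inhibitor of NF-κB, had 3.36 and 4.95. NFAT and calcineurin genes had 4 of 13 pairs called higher and 2 lower, with 4.14 and 6.35 at the promoter of *PPP3R1*, the regulatory subunit of calcineurin, and 4.54 and 3.98 at *PPP3CB*, a catalytic subunit. With the lists trimmed to equal length the direction turned, to 1 of 12 pairs higher and 3 lower, against 15.5% and 17.1% of all pairs.

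ETS, RUNX and GATA factor genes had 14 of 62 pairs called higher (22.6%) and 5 lower (8.06%), which turned to 4 and 11 of 52 with the lists trimmed to equal length, where all pairs had 15.5% and 17.1%. Among the 19 pairs of this list with both ranks above the median, 0 were called higher and 0 lower. *FLI1*, an ETS factor, had 3 pairs called higher and 1 lower, the furthest with 3.30 and 5.12. Regulators of the T lineage and of T-cell leukaemia had 13 of 47 pairs called higher (27.7%) and 5 lower (10.6%), and 6 and 7 of 33 with the lists trimmed. *TCF7*, which encodes TCF-1, had 3.49 and 5.13 at 9.22 kb upstream, and *ID3*, an inhibitor of E proteins, had 2.89 and 4.41. At *HES1*, a target of NOTCH, the pair 46.5 kb upstream (chr3:193807314-193807579) had 4.57 and 2.90, the lowest shift of all 13 lists at −65.4, and it held AP-1 letters. *ID2*, a relative of *ID3*, had 6.36 and 4.56 at 14.01 kb upstream.

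Survival regulators had 6 of 24 pairs called higher and 3 lower, and 3 and 2 of 22 with the lists trimmed. Of the 6 with both ranks above the median, 0 were called higher and 1 lower. *BCL2L1*, the anti-apoptotic BCL-XL, had 3.41 and 7.69 at an intronic pair 30.6 kb from the nearest coding TSS (chr20:30279568-30279987) and 3.95 and 5.50 at another. *BCL2* itself had 5.61 and 4.61 at its intronic pair called lower, which held AP-1 and GATA letters. The pro-apoptotic *BCL2L11* (BIM) had 3.07 and 4.18 at its promoter and 4.61 and 3.77 at 46.1 kb.

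Phosphatases and feedback regulators of cytokine and MAP kinase signals had more pairs called lower than higher, 10 of 46 pairs (21.7%), with 6 higher (13.0%). With the lists trimmed to equal length, 10 of 40 were lower and 3 higher, and with the score in place of fold 7 of 46 and 5. Among the 23 pairs with both ranks above the median there was no such lean, with 2 lower and 2 higher (8.70% each). All such pairs had 5.39% lower and 8.41% higher. The pairs called lower lay at 9 genes, among them *DGKA* and *DGKZ*, diacylglycerol kinases that remove the lipid PMA mimics, with 3.91 and 3.13 at *DGKA* and 4.18 and 3.66 at *DGKZ*. *SPRED1* and *SPRED2*, inhibitors of RAS signalling, had 4.56 and 3.75 and, at *SPRED2*, 4.09 and 3.50. The MAP kinase phosphatases *DUSP2*, *DUSP5* and *DUSP10* and the cytokine inhibitor *SOCS3* each had 1 pair called lower, with 6.53 and 5.04 at *SOCS3*. Within the list, *PIM1*, a kinase induced by cytokines, had the largest shift upwards, 81.4 points, with 2.76 and 5.30 at a pair 13.3 kb from its TSS (chr6:37151078-37151322) and 4.49 and 7.97 at another, although its promoter was called lower with 4.63 and 4.09.

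PKC genes and other phorbol ester targets lay near the background, with 4 of 25 pairs called higher (16.0%) and 3 lower (12.0%). *PRKCH*, which encodes PKC-η, had the furthest pair in both directions, each in an intron. The fold enrichment was 2.96 and 4.96 at 10.4 kb downstream of the nearest coding TSS and 3.83 and 3.13 at 4.35 kb upstream of it. *PRKCQ*, which encodes the PKC-θ of T cells, had 3.97 and 3.41 at its called pair. AP-1 subunit genes had 5 of 26 called higher (19.2%) and 4 lower (15.4%), which turned to 2 and 4 of 24 with the lists trimmed, with 3.39 and 5.03 upstream of *FOSL2*, 5.01 and 4.08 at its first exon and 4.10 and 3.03 far upstream of *FOS*. With both ranks above the median, 0 of 11 AP-1 subunit pairs were called higher and 2 lower, and 3 of 11 pairs of the PKC list higher and 0 lower. Ribosomal protein genes, mostly promoters, had 7 of 80 pairs called higher (8.75%) and 4 lower (5.00%).

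The study examined individual FAIRE regions at 20 genes, and 18 of them had at least 1 pair within 50 kb of a TSS. *MIR155* was not found by symbol in the annotation, so its pairs were not counted. Every pair was called higher at *BIRC3*, *IL2* and *NFATC1*. At *BIRC3*, an inhibitor of apoptosis and NF-κB target, the 4 pairs had modest and similar shifts of 26.5 to 35.4 points, with 4.14 and 5.24 at the TSS (chr11:102187882-102188292). The last of the 4 lies at the TSS of *BIRC2*. At *NFATC1*, the pairs had 2.91 and 4.55 at 6.81 kb and 3.76 and 4.91 at 0.128 kb upstream of the same TSS, which is not a coding one. Both pairs were intronic and lay 117 kb and 123 kb downstream of their nearest coding TSS, that of *NFATC1*. By qPCR, the study reported that rottlerin pre-treatment abrogated SW accessibility at an enhancer region upstream of *NFATC1*. The pairs called here lie within the gene, so they are other sites, and their calls cannot be set against that result.

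Near *MIR21*, a microRNA gene induced in activated T cells, the pairs 11.8 kb and 3.46 kb upstream had 3.62 and 5.26 and 3.23 and 5.04, and the pair 28.9 kb upstream was called lower with 4.73 and 4.12. *PRDM8* had 3.41 and 5.21 at 1.55 kb upstream and 3.64 and 5.69 at 40.8 kb, and 4.12 and 3.39 at its pair called lower. Upstream of *TNFSF10*, the death ligand TRAIL, the strong peak at 7.34 kb had 5.34 and 9.65, which took it from rank 86.4 to 99.9 and so, near the top of the scale, was not called. *BACH2*, a repressor of effector genes, had 12 pairs, 4 called higher and 2 lower, from 3.25 and 5.28 at one intronic site to 3.93 and 3.33 at another.

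Only lower calls were found at *DUSP10*, *BCL6*, *ID2*, *DUSP2* and *TRIB3*, 1 at each gene. At *BCL6*, a transcriptional repressor, the pair 31.8 kb upstream had 3.49 and 2.97 and held AP-1 letters. At *TRIB3*, a pseudokinase, the called pair, 35.5 kb away and nearest to *SOX12*, had 4.34 and 3.52. *CREB5* had 3.28 and 4.35 at a TSS and 4.23 and 3.24 in an intron, so its calls went both ways. *BCL2A1* had no call, with 3.89 and 4.51 at its promoter, and *CXCL8* had no pair. At 8 of the 18 genes pairs were called in both directions, *LTA* and *TNF* among them, which share the same 5 pairs. The names of this list come from the study of these samples.

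Among the 429 genes that were the nearest coding gene within 50 kb of at least 4 pairs, the median of the genes' median shifts was 6.68. The highest medians were at *NSMCE1* (a subunit of the SMC5/6 complex, 59.9), *ZBTB16* (the transcription factor PLZF, 49.8), *TEAD1* (a transcription factor of the Hippo pathway, 49.2), *IFNAR2* (a chain of the interferon receptor, 46.3) and *EGLN3* (a prolyl hydroxylase of the hypoxia response, 45.3). The 4 pairs of *NSMCE1* had 3.25 and 4.85, 3.28 and 4.93, 3.21 and 5.04, and 4.65 and 5.37, the last at a TSS and not called. *ZBTB16* had 3 pairs called higher, the furthest with 3.04 and 5.96, and 1 called lower with 4.72 and 3.93. *TEAD1* had 3.64 and 5.50 at its promoter.

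The lowest medians were at *CD82* (a tetraspanin, −22.2), *TBL1XR1* (a corepressor subunit, −18.5), *PTP4A2* (a phosphatase, −16.3), *STIM1* (the calcium sensor of the endoplasmic reticulum, −15.3) and *MTURN* (−14.3). At *STIM1*, 4 of 7 pairs were called lower, such as 4.01 and 3.10 and 4.50 and 3.56 at intronic sites, and none was called higher. At *CD82*, 3 of 5 intronic pairs were called lower, while the strongest, 0.19 kb before a TSS, had 6.64 and 8.13. Of the 429 genes, 0 had all pairs called in 1 direction.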

How the data were processed

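FAIRE-seq libraries of Jurkat cells were sequenced by the authors, 1 library per condition, trimmed with CutAdapt, aligned to hg19 with Bowtie2, freed of duplicates with Picard and called with MACS2 in broad mode against total input. Tool versions are not given in the sources used here. The deposited peak lists hold, per peak, a score, a fold enrichment over input and −log10 p and q values, each made by the authors with MACS2. Read depth is not in these lists. The column used was the fold enrichment, read as a percentile rank within each list, with the score and q as alternatives.

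Pairs were annotated with GENCODE release 44 on GRCh37, and the distance is that to the nearest coding TSS. For the genes at which the study placed its FAIRE regions, it is that to the gene's nearest TSS of any transcript. Letters were searched on both strands in the central 300 bp of each overlap. The NF-κB letters can contain part of the NFAT letters on the opposite strand. The 12 pairs with the highest and the 12 with the lowest shift were named, the 5 highest in both lists, the called pairs of the gene lists, the pairs within 50 kb of the genes at which the study placed its FAIRE regions, and the 5 genes at each end with at least 4 pairs. Members and lists were chosen with earlier results of these data known. The pairing and ranking were tested on simulated data. Tables were handled in Python 3.11.15 with pandas 2.3.3 and numpy 2.4.6, and numpy also gave the intervals. Ranks and correlations came from scipy 1.17.1. Sequence was read through samtools 1.23.1 and pysam 0.24.0, and plots were drawn with matplotlib 3.10.9. The alternatives tried covered overlap, width, list length (each list trimmed to its highest scores, to the length of the shorter), ranks, score, q, window, tail size, threshold and GC content. The other 5 samples were not analysed here.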

Additional observations from a re-analysis of the deposited data

How the results depend on the processing

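Of 253 values recomputed under 14 alternatives, 103 were shifts at the named loci, where only the call was checked. Of the other values, 103 kept their direction and size and 47 did not, of which 7 changed sign. The named loci were chosen for the most extreme shifts, so a kept call there adds little. The 103 values that could be had at the named loci kept their call, but loci without a pair under a setting gave none: with the lists trimmed to equal length 12 of the 12 highest and 0 of the 12 lowest loci had a pair, with widths within 1.5 times 1 and 8, with 50% reciprocal overlap 5 and 9, and with a q of 0.05 or less 11 and 9. The cause of these changes was not tested. No paired analysis was possible because each list is 1 library and no result comes from a test, and no library could be left out. Differences below are upper minus lower tail, in percentage points. With ranks among pairs, the median shift was −0.32, the promoter share difference −0.35 (3.27 as reported), and the gene lists had 19.5% higher and 13.2% lower. With the lists trimmed to equal length, the median shift was −1.19, the promoter difference −15.3, the CpG-island-like difference −9.67 (6.18 as reported), NFAT 19.3, GATA 25.8, CACCTG −13.1, ETS 0.691, NS DMSO −15.6, NS rottlerin 0.691, and the gene lists 19.4% and 16.3%. With 50% reciprocal overlap, the promoter difference was 7.78, NFAT 9.69 and the island difference 12.01. With widths within 1.5 times, these were 11.6, 5.94 and 16.7, with GATA 7.46 and NS DMSO 1.98. With both ranks above the median, 8254 pairs remained, with a Spearman correlation of 0.591, a median shift of 3.07, 694 called higher, 445 lower, GATA 13.3, CACCTG −10.9, NS rottlerin 8.96 and gene lists 9.30% and 6.395%. With tails of 1%, the promoter difference was 7.02, NFAT 19.9, GATA 26.9, AP-1 −21.6 and NS rottlerin 28.1. A threshold of 10 points called 5497 higher and 4197 lower, and 30 points 1876 and 1030. Within a GC content of 40 to 50%, an alternative chosen after seeing the data, the promoter difference was −1.65, NFAT 18.9, GATA 24.2, ETS 10.1 and NS DMSO −10.3. Depth is unknown, so weak peaks may be missed unequally in the lists.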
